A study of Homo sapiens with 6 samples.

Results

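ACOX3, the peroxisomal acyl-CoA oxidase of branched-chain fatty acids, was followed in HepG2 cells given TGFβ, together with 8 genes of fatty acid oxidation: ACOX2, EHHADH, HSD17B4, ACAA1, SCP2, AMACR, PPARA and CPT1A. The 9 genes were taken by symbol from a deposited table of 57773 genes, and all 9 were among the 22747 genes with enough reads to be tested. ACOX3 was selected on its rise in these same cultures, so its values are given as a description without a test. The other 8 were picked by their role, with earlier results of these data known. The comparison asks whether genes of the same pathway moved with ACOX3 or whether ACOX3 moved apart from them.

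HepG2 is an established line from a human hepatocellular carcinoma. Cultures received vehicle (n = 3) or recombinant human TGFβ1 at 5 ng/mL (n = 3) for 3 h, both in serum-free medium, and the labels give no other alteration of the cells. Polyadenylated RNA of each culture was sequenced with a kit that does not mark strand, and reads were counted per gene on hg19. Between 60815385 and 100099136 reads per culture fell on genes. Known TGFβ targets followed the labels: SMAD7 (log2 fold change 1.72), SKIL (2.45) and PMEPA1 (4.30) were all higher in every TGFβ culture than in every vehicle culture, each with a false discovery rate (FDR) under 0.05 by edgeR. ALB, the main hepatocyte product, stood at 3405 to 4171 RPKM (reads scaled to gene length and library size). Of 8 hepatocyte markers, 0 were called by edgeR. An unadjusted p under 0.05 was reached by 0 of the 8 and by 3107 of all 22747 tested genes. FGB and TTR were lower with a replicate block (the numbers of the cultures as a term in the fit). The summed RPKM of those 8 was 7081 to 7844 with vehicle and 6550 to 7751 with TGFβ. Over all tested genes edgeR called 4.12%, so 0 of 8 is near that share, and the block called 3.75% lower. Of 10 markers of other cell types, PECAM1 was not analysed here, CD3E had no read, and VWF, DCN, LUM, KRT5, KRT14 and PTPRC together with CD3E summed to at most 0.0495 RPKM in any culture. The macrophage marker CD68 (log2 fold change 0.06) and PDGFRB (1.22, FDR 0.0582, and 7.25e-06 with a replicate block) made up the rest, so that the 9 analysed summed to 14.6 to 14.9 RPKM with vehicle and 15.7 to 16.4 with TGFβ. In bulk RNA, more cells with a transcript and more transcript per cell cannot be told apart.

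Peroxisomes shorten very long-chain fatty acids, branched-chain fatty acids and bile acid intermediates that mitochondria handle poorly. An acyl-CoA oxidase makes the double bond and releases hydrogen peroxide, a bifunctional enzyme hydrates and oxidizes the product, and a thiolase cleaves it. In liver many of these genes are targets of the nuclear receptor PPARα, encoded by PPARA, while CPT1A controls the entry of long-chain fatty acids into mitochondria.

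ACOX3 (ENSG00000087008) lies on the minus strand of chromosome 4, at chr4:8368009-8442450 in hg19, with 21 merged exons over 8 annotated transcripts. The bases just upstream of its annotated start sites are shown because this is the gene whose transcript moved most among the 9. The RefSeq promoter table on GRCh38.p14 held 6 of the 9 genes, with 9 start sites, and did not hold ACAA1, ACOX2 or EHHADH. The 250 bases before each start were searched on both strands for CAGAC, the core bound by SMAD proteins, and for AGGTCA, the repeat unit recognized by PPAR with its partner RXR. The palindrome TGACGTCA, the cAMP response element, was added after the sequences had been seen. CPT1A is printed beside ACOX3 because it also moved. Sequences run 5′ to 3′ on the gene's strand, and capitals mark the motif found.
ACOX3, start site 1, minus strand, chr4:8440724-8440973: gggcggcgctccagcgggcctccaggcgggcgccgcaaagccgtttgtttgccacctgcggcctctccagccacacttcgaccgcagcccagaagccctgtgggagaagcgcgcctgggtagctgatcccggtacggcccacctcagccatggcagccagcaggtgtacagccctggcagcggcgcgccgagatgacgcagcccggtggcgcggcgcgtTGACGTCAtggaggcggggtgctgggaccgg
ACOX3, start site 2, minus strand, chr4:8428449-8428698: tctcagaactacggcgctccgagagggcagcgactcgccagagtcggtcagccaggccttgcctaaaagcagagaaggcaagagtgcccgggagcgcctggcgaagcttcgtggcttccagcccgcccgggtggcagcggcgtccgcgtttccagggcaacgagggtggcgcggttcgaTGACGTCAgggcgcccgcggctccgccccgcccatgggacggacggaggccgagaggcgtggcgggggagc
CPT1A, minus strand, chr11:68844278-68844527: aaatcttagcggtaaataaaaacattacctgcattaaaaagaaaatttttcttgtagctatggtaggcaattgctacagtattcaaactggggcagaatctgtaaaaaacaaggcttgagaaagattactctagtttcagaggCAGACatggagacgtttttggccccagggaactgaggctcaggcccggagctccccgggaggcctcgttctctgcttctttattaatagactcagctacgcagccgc

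Both ACOX3 windows held TGACGTCA, at positions -31 to -24 of start site 1 and -71 to -64 of start site 2, and held neither CAGAC nor AGGTCA on either strand. TGACGTCA was present in 1.65% of 35116 RefSeq promoters searched in the same way, CAGAC in 38.0% and AGGTCA in 12.1%. Because TGACGTCA was picked after these windows had been seen, nothing is read from its low share. CAGAC was found at -107 to -103 of CPT1A and at -139 to -135 of AMACR. The windows of HSD17B4, SCP2 and PPARA held none of these motifs. A match of letters in these windows is a description of the sequence, and binding was not measured.

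ACOX3 transcripts were higher in every TGFβ culture than in every vehicle culture. With vehicle, 2638, 2062 and 1764 reads were counted in cultures 1, 2 and 3, which the authors scaled to 6.34, 5.49 and 6.08 RPKM. With TGFβ, 7003, 5913 and 5411 reads gave 15.3, 15.9 and 14.95 RPKM. The group means were 5.97 ± 0.434 and 15.4 ± 0.458 RPKM (SD, n = 3 each), and the groups were far apart relative to their spread. The fitted log2 fold change was 1.40 (SE 0.08), a 2.64-fold higher level. Cultures with the same number were also compared as pairs, and the log2 ratio was 1.27 in pair 1, 1.56 in pair 2 and 1.37 in pair 3. Pairs 1 and 2 each shared a sequencing lane, and pair 3 did not. Ordered by fitted log2 fold change, ACOX3 stood at rank 176 of the 22747 tested genes, and at rank 12 of the 6994 whose vehicle level in CPM (reads scaled to library size alone) was at least its own.

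**Figure D1:**
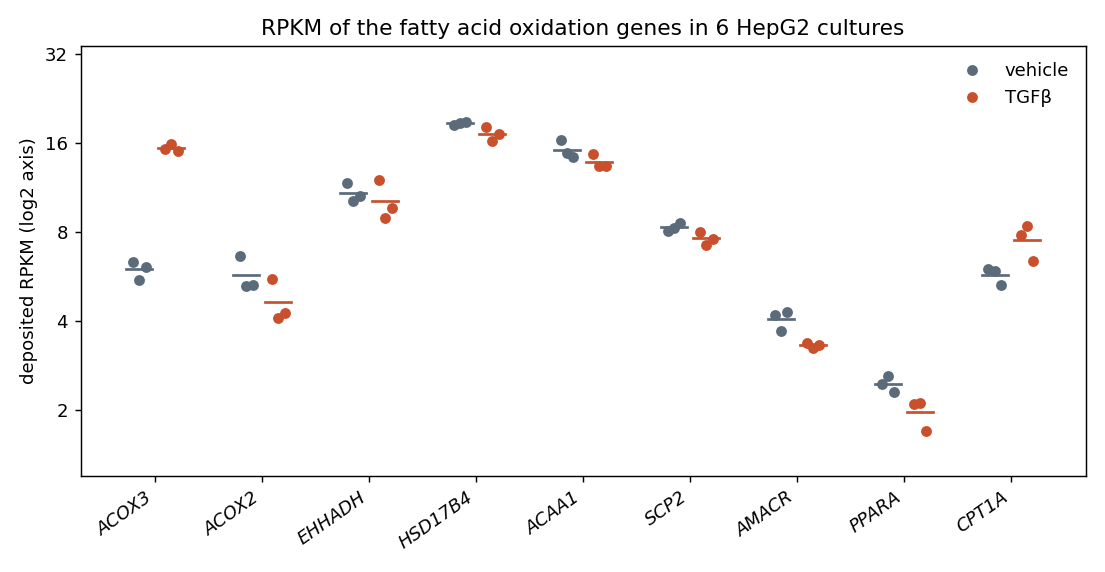
Deposited RPKM (log2 axis) of ACOX3 and the other 8 genes in the 6 cultures, with 1 point per culture and a line at each group mean (grey for vehicle, orange for TGFβ). ACOX3 moves from 5.97 to 15.4 RPKM, while most other genes stay near their vehicle level.

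ACOX2, the oxidase of bile acid intermediates and branched chains, was not called without the block. It had 6.65, 5.24 and 5.28 RPKM with vehicle and 5.53, 4.10 and 4.24 with TGFβ. The groups overlapped, and its log2 fold change was -0.27 (SE 0.14, 95% interval -0.58 to 0.04, edgeR FDR 0.472). Within pairs the log2 ratios were -0.26, -0.32 and -0.24, and with the replicate block ACOX2 was called lower (log2 fold change -0.27, SE 0.06, FDR 0.0120).

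Downstream of the oxidases, neither bifunctional enzyme was called. EHHADH, the L-bifunctional enzyme, had 11.7, 10.1 and 10.6 RPKM with vehicle and 11.96, 8.88 and 9.61 with TGFβ. Culture 1 was the highest of each group, the groups overlapped, and the log2 fold change was -0.05 (SE 0.12, interval -0.31 to 0.21, FDR 0.913). Its sign turned without vehicle culture 1 (0.01) and without TGFβ culture 2 (0.04), neither past the threshold. HSD17B4, the D-bifunctional enzyme for branched chains and bile acid intermediates, was the most abundant of the 9 in every culture. Its RPKM was 18.4, 18.7 and 18.8 with vehicle and 18.1, 16.3 and 17.1 with TGFβ (log2 fold change -0.08, SE 0.07, interval -0.24 to 0.09, FDR 0.773). The ratio of ACOX3 to HSD17B4 RPKM was 0.345, 0.295 and 0.324 with vehicle and 0.842, 0.975 and 0.876 with TGFβ.

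The thiolases showed small differences that were not called. ACAA1, the peroxisomal 3-ketoacyl-CoA thiolase, had 16.3, 14.8 and 14.3 RPKM with vehicle and 14.7, 13.3 and 13.3 with TGFβ (log2 fold change -0.10, SE 0.08, interval -0.28 to 0.08, FDR 0.726). Vehicle culture 3 lay below TGFβ culture 1, so the groups overlapped. SCP2, whose longer product carries a thiolase for branched chains, had 8.07, 8.26 and 8.56 RPKM with vehicle and 7.98, 7.25 and 7.58 with TGFβ. Its log2 fold change was -0.09 (SE 0.08, interval -0.26 to 0.08, FDR 0.740). DLEC1, which overlaps ACAA1, held 23.0% as many reads as ACAA1 and had a log2 fold change of -0.06 (FDR 0.897).

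AMACR, the racemase that prepares branched chains and bile acid intermediates for oxidation, was lower in each TGFβ culture. It had 4.19, 3.69 and 4.28 RPKM with vehicle and 3.37, 3.24 and 3.32 with TGFβ, without overlap. The log2 fold change of -0.25 (SE 0.10, interval -0.47 to -0.04) had an FDR of 0.244 and was called only with the replicate block (FDR 0.0283). RP11-1084J3.4 shares 20942 bases with AMACR, held 85.9% as many reads and had a nearly equal log2 fold change of -0.26 (FDR 0.230). How reads shared by these genes were counted is not given in the sources used here, so the value of AMACR is uncertain.

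The regulator PPARA was not called, and CPT1A, the mitochondrial gate, rose. PPARA had 2.46, 2.60 and 2.30 RPKM with vehicle and 2.10, 2.10 and 1.69 with TGFβ, so that every TGFβ culture was below every vehicle culture. Its log2 fold change was -0.28 (SE 0.09, interval -0.48 to -0.09, FDR 0.132), and it was called lower with the replicate block (-0.29, FDR 0.00747). CPT1A had 5.995, 5.89 and 5.30 RPKM with vehicle and 7.80, 8.34 and 6.37 with TGFβ. CPT1A rose 1.34-fold without overlap (log2 fold change 0.42, SE 0.09, interval 0.22 to 0.63, FDR 0.0309, and 0.000475 with the block). The call rests on most cultures being present: the FDR was 0.0505, 0.120 and 0.162 without vehicle culture 1, 2 or 3, and 0.111 and 0.144 without TGFβ culture 1 or 2. The log2 fold change stayed between 0.35 and 0.50 over all alternatives.

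Of the 9 genes, 2 were called higher (ACOX3 and CPT1A), where 3.11% of all tested genes were called higher, and 0 were called lower, where 1.01% of all genes were. At an unadjusted p under 0.05 there were 4 of the 9, against 3107 of all 22747 tested genes. DESeq2 also called 0 of the 9 lower. With the replicate block 2 were called higher and 3 lower, against 8.08% and 3.75% of all genes. Judged in CPM, groups did not overlap for 2 genes that were higher and 2 that were lower, against 10.4% and 8.23% of all genes. In the RPKM shown, HSD17B4 and SCP2 were also lower in every TGFβ culture than in every vehicle culture, but in CPM they overlapped. Because ACOX3 was selected on this comparison, nothing is read from these shares. The 7 genes left after setting aside ACOX3 and CPT1A, the 2 called higher, had log2 fold changes between -0.28 and -0.05. Of their 95% intervals, 6 lay within 0.5 of 0 on the log2 scale, against 10463 of 22747 over all tested genes. Since the 7 were set apart by these same calls, nothing is read from their range. Over the 9 genes the median log2 fold change was -0.09, and over all tested genes it was -0.01.

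**Figure D2:**
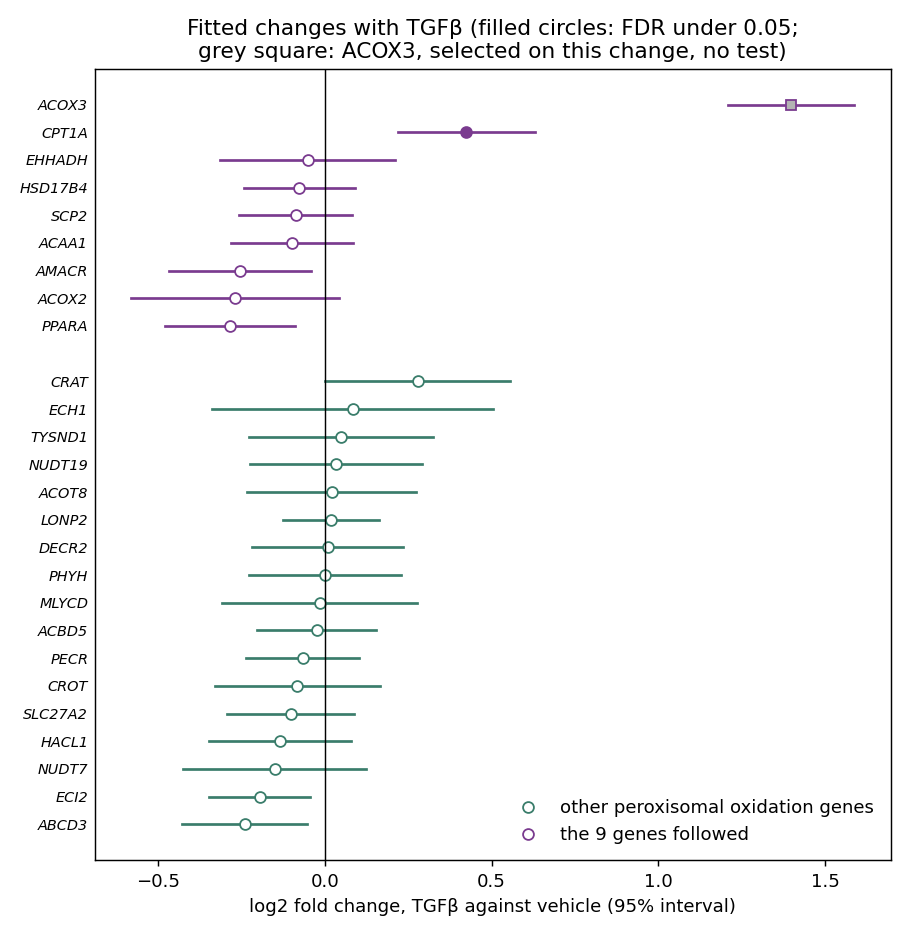
Fitted log2 fold changes (TGFβ against vehicle) with 95% intervals for the 9 genes followed and for other genes of peroxisomal fatty acid oxidation, of which the 2 that rose are not shown. The filled circle has an FDR under 0.05 (CPT1A), and the grey square is ACOX3 at 1.40, selected on this change.

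The order of the levels changed with treatment. With vehicle, the mean RPKM ran from HSD17B4 (18.6) through ACAA1 (15.1), EHHADH (10.8), SCP2 (8.29), ACOX3 (5.97), CPT1A (5.73), ACOX2 (5.72) and AMACR (4.05) to PPARA (2.45). The cultures of ACOX3, CPT1A and ACOX2 overlapped, and all other neighbors in this order were apart in all 3 vehicle cultures. With TGFβ, ACOX3 (15.4) stood below HSD17B4 (17.2) and above ACAA1 (13.8), without overlap with either. No order is tested here, since RPKM depends on the length assigned to each gene.

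The wider pathway was read from lists of genes with the same fit. Among 22 other genes of peroxisomal fatty acid oxidation, 19 were tested, 2 rose and 0 fell, where 3.11% and 1.01% of all tested genes did. The median log2 fold change was 0.00, and the 2 that rose are not described further. The most abundant of these genes, the isomerases ECH1 (27.8 RPKM with vehicle) and ECI2 (22.5) and the reductase PECR (19.3), had log2 fold changes of 0.08, -0.20 and -0.07, none called. With the replicate block 3 were higher and 2 lower, against 8.08% and 3.75% of all tested genes. Newly higher was the carnitine acetyltransferase CRAT (log2 fold change 0.28, block FDR 0.00725). The 2 lower were ECI2 (block FDR 0.0264) and the transporter ABCD3 (-0.24, block FDR 0.0400).

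The peroxisome's own assembly genes showed no call. Of 17 peroxins, 16 were tested, and 0 were called by edgeR with or without the block or by DESeq2. An unadjusted p under 0.05 was reached by 0 of the 16 and by 3107 of all 22747 tested genes. The median log2 fold change of the 16 was -0.08. Of their intervals, 14 lay within 0.5 of 0, against 10463 of 22747 over all tested genes. Over all tested genes edgeR called 4.12%, and 0 of 16 is near that share. PEX19 (15.9 RPKM with vehicle), PEX10 (11.2) and PEX3 (9.85), the most abundant, had log2 fold changes of 0.00, -0.12 and -0.21. Among 17 other peroxisomal enzymes, 16 were tested and 0 were called, again near the 4.12% of all tested genes. Of the 16, 2 had an unadjusted p under 0.05, against 3107 of all 22747 tested genes. The median log2 fold change of the 16 was 0.02. Catalase, which removes the hydrogen peroxide that the oxidases release, had 36.7, 33.1 and 34.3 RPKM with vehicle and 38.0, 31.4 and 33.1 with TGFβ (CAT, log2 fold change 0.02, SE 0.09, FDR 0.966). The peroxiredoxin PRDX5 (74.4 RPKM with vehicle) and the ether lipid enzyme GNPAT (24.4) had log2 fold changes of 0.03 and -0.12. With the block 2 of these enzymes were higher, where 8.08% of all tested genes were. They were AGPS, the ether lipid synthase (0.32, block FDR 0.00112), and HAO2 (1.72, block FDR 0.00636). HAO2, a hydroxy acid oxidase, had only 17, 5 and 6 reads in the vehicle cultures against 49, 19 and 32 in the TGFβ cultures. DESeq2 called 1 of the 16, HAO2, higher.

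Besides CPT1A, no gene of mitochondrial fatty acid oxidation on the list was called without the block. Of 22 such genes, 21 were tested and 0 were called by edgeR or DESeq2. Over all tested genes edgeR called 4.12%, so 0 of 21 is near that share. An unadjusted p under 0.05 was reached by 1 of the 21 and by 3107 of all 22747 tested genes. The 21 had a median log2 fold change of -0.01. Of their intervals, 19 lay within 0.5 of 0, against 10463 of 22747 over all tested genes. HADHA, a subunit of the trifunctional protein, had 68.6 RPKM with vehicle and a log2 fold change of -0.07. The hydratase ECHS1 (67.0 RPKM) and the electron transfer subunit ETFB (41.1 RPKM) had 0.03 and -0.01. With the replicate block, the isomerase ECI1 (0.27, block FDR 0.00754) and the thiolase ACAA2 (0.18, block FDR 0.0431) were called higher. The block called 8.08% of all tested genes higher.

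**Figure D3:**
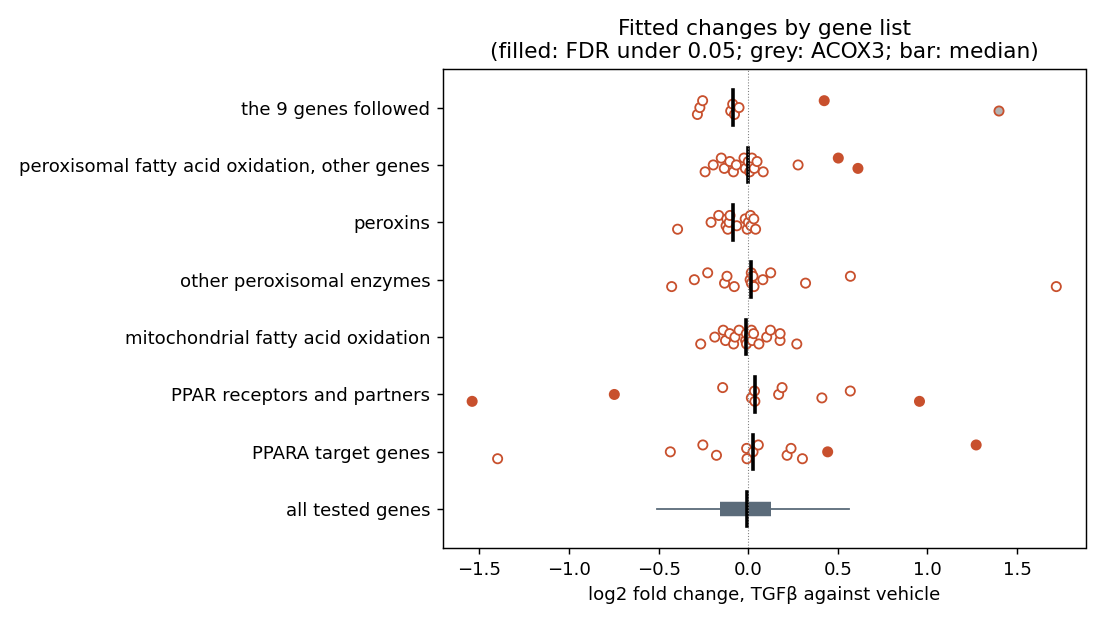
Fitted log2 fold changes of the tested genes of each list, with 1 point per gene, filled at an FDR under 0.05, grey for ACOX3, and a bar at the median. For all tested genes the thick line runs from the 25th to the 75th percentile (-0.16 to 0.13) and the thin line from the 5th to the 95th (-0.51 to 0.56), and every list median lies within the thick line.

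Genes of the PPARα circuit were called in both directions. Of 12 PPAR receptors, partners and coregulators, 11 were tested, 1 rose and 2 fell, with a median of 0.04. Among all tested genes 3.11% were called higher and 1.01% lower. PPARGC1A, the coactivator PGC-1α of fatty acid oxidation genes, had 1.64, 2.04 and 1.63 RPKM with vehicle and 1.09, 1.09 and 0.904 with TGFβ (log2 fold change -0.75, SE 0.11, FDR 0.00331). PPARGC1B, its paralog PGC-1β, fell from 224, 293 and 175 reads to 102, 95 and 60 (-1.54, SE 0.21, FDR 0.00274). The most abundant of this list, the liver regulator HNF4A (54.4 RPKM with vehicle), the mediator subunit MED1 (15.7) and the receptor partner RXRB (9.70), had log2 fold changes of 0.02, -0.14 and 0.03, none called. PPARG (0.57, block FDR 0.00263) and RXRA (0.41, block FDR 0.000245) were not called in the main fit and were called higher with the block. The block called 8.08% of all tested genes higher and 3.75% lower.

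Among 18 known targets of PPARα outside the peroxisome, 13 were tested, 2 rose and 0 fell, with a median of 0.03. The shares over all tested genes were 3.11% higher and 1.01% lower. ANGPTL4, an inhibitor of lipoprotein lipase, had 0.391, 0.339 and 0.384 RPKM with vehicle and 0.996, 0.752 and 0.869 with TGFβ (log2 fold change 1.27, SE 0.19, FDR 0.00462). ACSL1, which activates long-chain fatty acids to acyl-CoA, had 18.3, 15.4 and 17.9 RPKM with vehicle and 24.8, 21.2 and 22.3 with TGFβ (0.44, SE 0.10, FDR 0.0386). The FDR of ACSL1 was 0.136 and 0.105 without vehicle culture 2 or 3, and 0.125 and 0.0705 without TGFβ culture 1 or 3. The fatty acid binding protein FABP1 (25.5 RPKM with vehicle, log2 fold change -0.43, FDR 0.400) and the lipid droplet protein PLIN2 (20.1, 0.03) were not called. With the block 4 were higher and 1 was lower, against 8.08% and 3.75% of all tested genes. Newly higher were the thioesterases ACOT1 (0.30) and ACOT2 (0.24), near-identical genes whose reads may be split between them. FABP1 was lower (block FDR 0.0234).

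Near ACOX3 itself, 13 other genes lie over it or within 250 kb. Of these 10 were tested and 1 was called, where 4.12% of all tested genes were. RP11-774O3.3 (ENSG00000251615), a single-exon long noncoding RNA gene on the same strand at chr4:8356817-8360065 in hg19, begins 7.94 kb past the 3′ end of ACOX3 and shares no exon base with it. Its vehicle cultures held 62, 24 and 22 reads and its TGFβ cultures 223, 132 and 119, without overlap (log2 fold change 2.03, SE 0.33, interval 1.30 to 2.76, FDR 0.00688). This call held in all 13 alternatives, with log2 fold changes from 1.78 to 2.52. Whether these reads belong to a transcript of its own or to ACOX3 RNA that continues past the annotated end was not tested. TRMT44, on the opposite strand, shares 4584 bases with the ACOX3 span but no exon base, and held 856, 767 and 421 reads in the vehicle cultures against 903, 653 and 525 in the TGFβ cultures (log2 fold change -0.07, SE 0.16, FDR 0.915). SH3TC1 was not called without the block (0.29, FDR 0.341) and was called higher with it (FDR 0.0157). Of the other tested neighbors, HTRA3, GMPSP1, RP11-689P11.2, RP11-689P11.3, CPZ and GPR78 had log2 fold changes between -0.36 and 0.27.

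**Figure D4:**
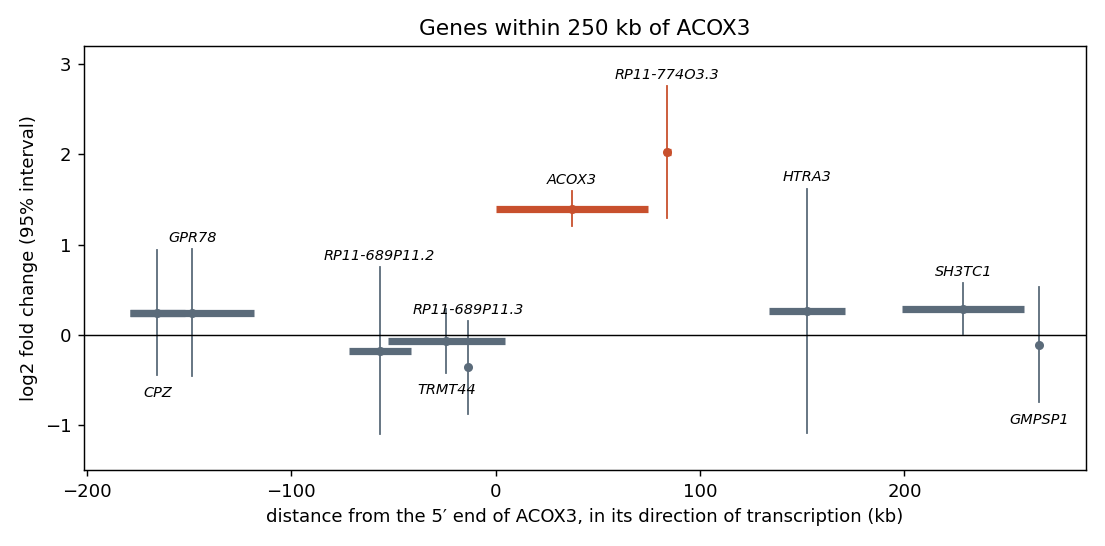
Fitted log2 fold change of tested genes near ACOX3 (thick bar over the gene's span, point at its middle, vertical line for the 95% interval) against distance from the 5′ end of ACOX3 in its direction of transcription. ACOX3 (1.40) and RP11-774O3.3 (2.03), in orange, lie side by side above the other genes shown.

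The profile of ACOX3 over the 6 cultures was matched most closely, among tested genes with a mean CPM of at least 1, by LMCD1, PHYHIP, C12orf49, MISP and ANGPTL2. Likeness was the root mean square difference of log2 CPM after centering each gene, which was 0.0484 for LMCD1, 0.0488 for PHYHIP, 0.0490 for C12orf49, 0.0539 for MISP and 0.0709 for ANGPTL2. These genes had fitted log2 fold changes from 1.33 to 1.46, close to that of ACOX3 by the way they were chosen. None of them is on the lists of peroxisomal, mitochondrial or PPAR genes. Only genes with a change close to that of ACOX3 could be chosen this way, so nothing is read from their absence from the lists.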

How the data were processed

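The authors aligned paired reads to hg19 (TopHat2 2.0.6 per the submitters' processing notes), ran MAPRseq for counts on genes, and deposited a table with a raw count and an RPKM for each culture. The deposited counts are unnormalized whole numbers, and every test used them. The deposited RPKM values were scaled by the authors to gene length and library size and are shown as levels. Not given in the sources used here are the annotation release, the strand setting of counting and the rule for overlapping genes. Groups and replicate numbers came from the labels. Chi-square per gene between replicates was 21.4 to 46.3, far above counting noise, so each culture counted as a sample. The p-values rest on the spread between these cultures, which without a block includes differences shared by same-numbered cultures.

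All 22747 genes kept by filterByExpr were fitted with edgeR 4.0.16 (limma 3.58.1, R 4.3.3) by TMM and the quasi-likelihood F test (robust, no block), with Benjamini-Hochberg adjustment over all of them and calls at an FDR under 0.05. Standard errors and 95% intervals are those implied by the F statistic. Exact permutation tests of 3 against 3 cannot give a p below 0.1. Same-numbered cultures deviated together from their group means (correlation across genes 0.227 to 0.366, at most 0.0101 for different numbers). The numbers were therefore treated as pairs for the log2 ratios within pairs, and a fit with the replicate number as a block was added. FDRs, standard errors and intervals given without mention of the block are those of the main fit, which ignores the pairs. The fit was tested on simulated counts. These were drawn without differences shared by same-numbered cultures, so they cannot show how such differences affect the main fit. Alternatives were no filter, a minimum of 10 reads in every library, scaling by DESeq2's size factors or by total counts, the tests of DESeq2 1.42.0 and limma-voom, the replicate block and leaving out each culture. Members and gene lists were chosen with earlier results of these data known. In each list the rule names every called gene and the 3 with the highest vehicle RPKM. It also names the tested genes within 250 kb of ACOX3, known TGFβ targets and the 5 profiles nearest to ACOX3. Other genes are named because a fit with the block called them or because they overlap a gene followed, and these were chosen after their values were seen. Some genes that were examined, and that counts over the lists include, have no values given. Gene models came from a GENCODE annotation on GRCh37, and promoters from RefSeq on GRCh38.p14.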

Additional observations from a re-analysis of the deposited data

How the results depend on the processing

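Of 117 values of the 9 genes under the alternatives, 107 kept their direction and side of the threshold. ACOX3 kept its direction in all 13 alternatives, with log2 fold changes from 1.32 to 1.45. EHHADH reversed without vehicle replicate 1 (0.011) and without TGFβ replicate 2 (0.044), and ran from -0.18 to 0.044 over the cultures left out. With the replicate block, 1837 genes were higher and 853 lower (8.08% and 3.75% of all tested genes). The block called 3 of the 9 genes lower, 2 other peroxisomal oxidation genes lower, 3 other peroxisomal oxidation genes higher, 2 other peroxisomal enzymes higher, 2 mitochondrial genes higher, 3 PPAR receptors and partners higher, and 4 PPARα targets higher and 1 lower. The paired fit changed no other count of these lists. Without a filter, 366 genes were lower, 1 other peroxisomal enzyme (HAO2) and 2 PPAR receptors and partners (PPARG among them) were higher, and 1 PPARα target (PDK4) was lower. With DESeq2, 406 genes were lower, and 1 other peroxisomal enzyme (HAO2) and 2 PPAR receptors and partners (PPARG among them) were higher. Leaving out each culture gave 394 to 778 genes higher and 91 to 220 lower, 1 to 2 of the 9 genes higher, 1 to 2 other peroxisomal oxidation genes higher, 0 to 1 other peroxisomal enzymes higher, 1 to 2 PPAR receptors and partners higher and 1 to 2 PPARα targets higher. The cause of these differences was not tested. Total-count scaling moved the median of all genes to -0.05.

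With 3 cultures per group at a single time and dose, intervals of low genes are wide. The small differences of AMACR, PPARA and ACOX2 passed the threshold with the replicate block and missed it in the other 12 alternatives. With the block the SE went from 0.095 to 0.066 for AMACR, 0.087 to 0.059 for PPARA and 0.139 to 0.061 for ACOX2. Transcript levels alone were measured.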
